A study of Mus musculus with 2 samples.

Results

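Immature granule-gene neutrophils were taken as the cells of the single-cell table that carried transcripts of Camp, Ngp and Ltf together, in a sum of at least 20 depth-corrected UMI values. A UMI is a molecular barcode that marks 1 captured transcript. The rule also asked for at least 20 of S100a8, for mitochondrial genes at no more than 10% of the cell's total, and for 0 of the lineage genes Cd3e (T lymphocytes), Cd79a (B lymphocytes), Pecam1 (endothelium) and Col1a2 (fibroblasts). It found 248 of 10660 kept cells, which is 2.33% (exact Clopper-Pearson 95% interval 2.05 to 2.63, counting error only), out of 11306 cells in all. They were set against 858 low-granule cells, 8.05% of kept cells (7.54 to 8.58), which met the same S100a8, mitochondrial and lineage conditions but had a granule sum below 20.

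The cells came from 1 library of FACS-sorted peripheral lung cells of wild-type mice at postnatal day 3, made with the droplet-based 10x Chromium 3′ chemistry. Whether animals were pooled, and which gate the sort used, are not stated in the labels. A second sample of the same age, PDGFRA+ cells sorted in bulk from Pdgfra-H2BGFP mice, in which green fluorescent protein marks nuclei of cells that use the Pdgfra gene, served only as an outside reading of the granule genes. With 1 sample in each group there is no replicate, cells of 1 library are not replicates, and both groups were chosen from measured values, so no difference was tested and every comparison is a description by size.

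Neutrophils are built in the bone marrow (and, around birth, in liver and spleen), and they make their granule proteins in successive waves while they mature. Azurophil granule proteases such as myeloperoxidase and neutrophil elastase are made first, in promyelocytes. Specific granule proteins such as lactoferrin, the cathelicidin Camp and lipocalin 2 follow in myelocytes and metamyelocytes, then gelatinase granule proteins, and last the receptors and mediators of the mature cell. Division stops as the myelocyte becomes a metamyelocyte, and the factor C/EBP-epsilon is required for specific granule genes.

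Of the 4 genes that mark the cells, Camp encodes the precursor of an antimicrobial peptide, Ngp a cathelin-related granule protein, Ltf the iron-binding lactoferrin and Lcn2 the siderophore-binding lipocalin 2. Camp (9:109847379-109849617, minus strand), Ngp (9:110419747-110423012, plus strand) and Ltf (9:111019271-111042767, plus strand) lie within 1.20 Mb of chromosome 9 in the GENCODE M21 annotation of mm10, and Lcn2 lies on chromosome 2 (32384633-32388252, minus strand). That stretch of chromosome 9 holds 28 other protein-coding genes. Of the 11 of them with enough signal, 0 had a log2 ratio of 1 or more in granule-gene neutrophils over low-granule cells, 1 had a ratio of -1 or less, and the median was -0.10.

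The stretches in front of the 4 start sites are shown because all 4 genes are read out together in these cells. They are the 250 bases upstream of the RefSeq start in GRCm38.p6, 5′ to 3′ on the gene's strand. The RefSeq starts differ from those of the GENCODE spans above. The Lcn2 window lies wholly inside its GENCODE span, and the Camp, Ngp and Ltf windows lie partly inside theirs. Capitals mark matches, on either strand, to TTNNGNAA, a loose form of the site that C/EBP factors bind.

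Camp, chr9:109849457-109849706, minus strand: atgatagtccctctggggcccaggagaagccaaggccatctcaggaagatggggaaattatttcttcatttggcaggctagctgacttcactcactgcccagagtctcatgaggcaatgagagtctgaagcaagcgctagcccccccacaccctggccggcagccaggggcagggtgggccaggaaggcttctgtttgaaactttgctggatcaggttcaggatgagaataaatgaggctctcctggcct

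Ngp, chr9:110419558-110419807, plus strand: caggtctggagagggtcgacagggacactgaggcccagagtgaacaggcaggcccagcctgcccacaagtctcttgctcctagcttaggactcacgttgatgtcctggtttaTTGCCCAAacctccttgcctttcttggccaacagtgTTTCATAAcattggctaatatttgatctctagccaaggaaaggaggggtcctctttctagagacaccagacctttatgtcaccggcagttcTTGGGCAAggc

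Ltf, chr9:111019042-111019291, plus strand: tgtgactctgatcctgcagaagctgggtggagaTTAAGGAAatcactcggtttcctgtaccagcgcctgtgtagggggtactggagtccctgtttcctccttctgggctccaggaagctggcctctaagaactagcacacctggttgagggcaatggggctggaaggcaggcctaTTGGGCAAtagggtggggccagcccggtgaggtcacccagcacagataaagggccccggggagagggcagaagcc

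Lcn2, chr2:32387740-32387989, minus strand: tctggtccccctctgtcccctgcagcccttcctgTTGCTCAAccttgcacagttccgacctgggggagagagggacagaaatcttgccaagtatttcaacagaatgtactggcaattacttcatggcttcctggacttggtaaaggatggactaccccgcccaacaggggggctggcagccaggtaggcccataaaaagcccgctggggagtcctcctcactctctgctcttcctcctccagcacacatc

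The stricter form TTGCNNAA (every match to it is also a match to TTNNGNAA) occurred at -138 to -131 and at -11 to -4 from the RefSeq start of Ngp, at -75 to -68 of Ltf and at -216 to -209 of Lcn2. These letters were not in the Camp window. Of all 32851 RefSeq promoter windows of this length, 9.56% held TTGCNNAA and 36.8% held TTNNGNAA. Of the specific granule genes listed for this report, 6 of 18 with a window held TTGCNNAA, as did 0 of 10 azurophil granule genes and 3 of 19 genes of the mature neutrophil. The looser TTNNGNAA, shown in capitals, was in 11 of 18 specific granule, 3 of 10 azurophil and 11 of 19 mature genes. These matches are descriptions of the letters, not binding sites.

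The groups differed in depth, which bears on all that follows. Granule-gene neutrophils had a median of 1307 detected genes and a median total of 5760.5 corrected UMI values, and low-granule cells 1012 genes and 4612. The deposited values are whole numbers already corrected for depth, and in shallow cells 1 recorded molecule is worth more than 1. The mean value above 0 of 8243 rare genes had a median of 1.09 in granule-gene neutrophils and 2 in low-granule cells. With 1.3 as the bound, 11.3% of granule-gene neutrophils and 68.6% of low-granule cells were shallow. The low-granule group was also mixed: the 262 cells with S100a8 below 100 had Csf1r, the receptor that marks monocytes and macrophages, above 0 in 51.9% of cells and the neutrophil surface gene Ly6g in 2.29%, while the 596 cells at 100 or more had Csf1r in 23.5% and Ly6g in 12.8%. Granule-gene neutrophils were not free of Csf1r either. In ranges of the granule sum that start at 20, 50, 100, 200 and 400 it was above 0 in 23.5%, 48.5%, 33.9%, 36.05% and 14.3% of them. In all, 3 settings are therefore given where they matter: all cells, depth-matched cells (rare-gene value below 1.3, 220 against 269 cells), and depth-matched cells with S100a8 of at least 200 (214 against 78 cells), here called the matched S100a8-high cells. The match is on the rare-gene value and not on detected genes. Median genes were 1380.5 against 2092 in depth-matched cells and 1371 against 1151 in matched S100a8-high cells.

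**Figure D1:**
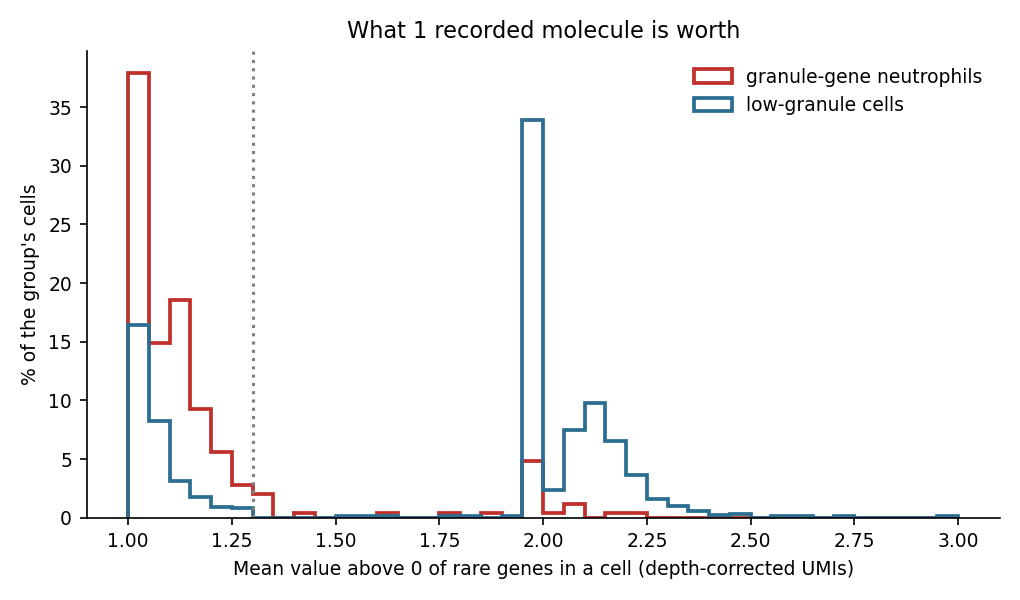
Distribution of the mean value above 0 of rare genes in a cell (x axis, depth-corrected UMIs) as the share of each group's cells (y axis, %), with the dotted line at 1.3. Granule-gene neutrophils lie mostly near 1 and low-granule cells mostly at 2 or above, so 11.3% and 68.6% of them were shallow.

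The values the rule used are given as a description. Camp ranged from 6 to 457 per cell (median 105.5) in granule-gene neutrophils, and from 0 to 15 (median 0) in low-granule cells. Ngp ranged from 6 to 368 (median 98.5) in granule-gene neutrophils, and from 0 to 19 (median 0) in low-granule cells. Ltf ranged from 1 to 104 (median 32) in granule-gene neutrophils, and from 0 to 4 (median 0) in low-granule cells. The sum of the 3 genes had a median of 236.0 (quartiles 117.5 and 385.5, highest 900.0) and took a median of 4.14% of a granule-gene neutrophil's total. The lowest sums inside the threshold were 24, 24 and 27 and the highest outside it 19, 19 and 19, and 25 further cells reached a sum of 20 with 1 of the 3 genes at 0 and belong to neither group. The lineage conditions left out 111 cells that met all others, 63 of them for Col1a2, and in 63 of the 111 no lineage gene was above 1. Granule-gene neutrophils held 69.0% of all Camp in the kept cells, 67.4% of Ngp and 67.2% of Ltf, and with those 111 cells added 94.6%, 93.4% and 95.5%.

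**Figure D2:**
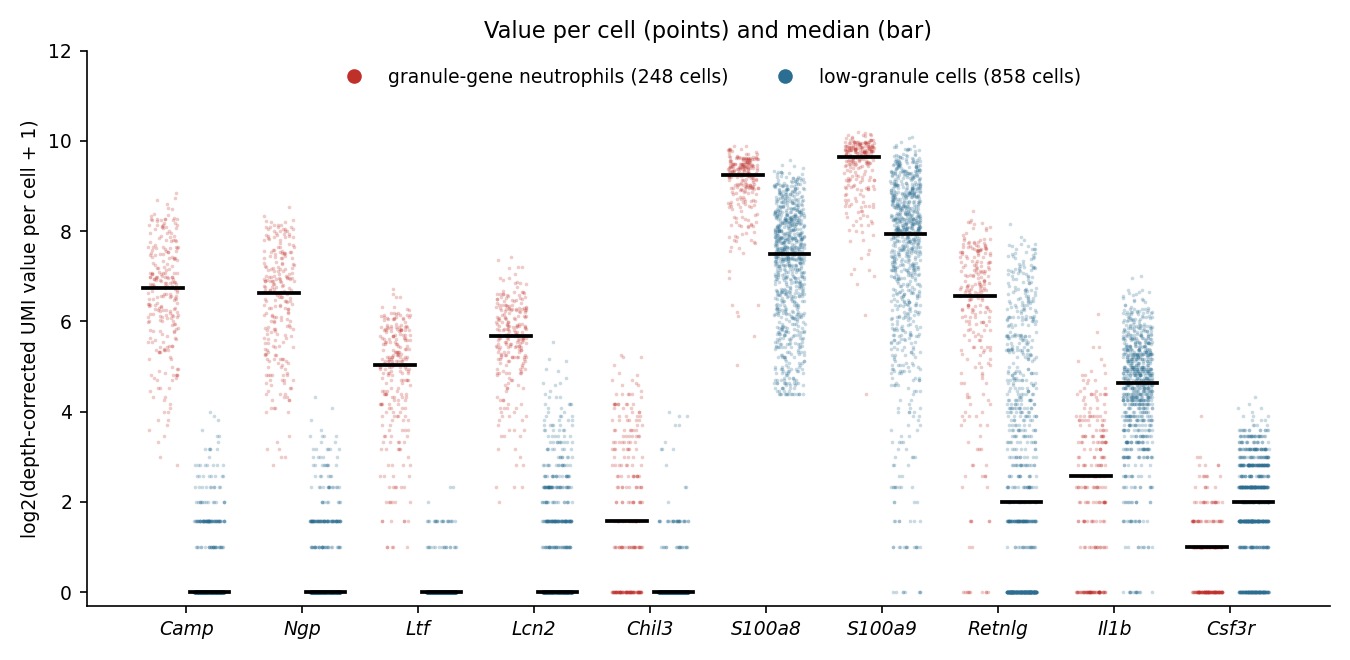
Each point is 1 cell and each bar the group median, for 248 granule-gene neutrophils (red, left) and 858 low-granule cells (blue, right), as log2 of the depth-corrected UMI value plus 1. Camp, Ngp, Ltf and S100a8 were used by the rule; Lcn2, Chil3, S100a9 and Retnlg sit higher in granule-gene neutrophils, and Il1b and Csf3r lower.

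Lcn2, the one marker outside the rule, was present in every granule-gene neutrophil, from 3 to 171 per cell with a median of 50, against 0 to 46 with a median of 0 in low-granule cells. Its level, the summed values of a group scaled to a total of 1000000 (CPM), was 9584 CPM in granule-gene neutrophils and 392 in low-granule cells, a log2 ratio of 4.61 with 1 CPM added to both. All 4 markers were thus above 0 in 248 of 248 cells, for 3 of the markers by the rule itself, so this count is no check of the label. Of the 248 cells, 8 were predicted doublets. The per-cell ranges of Lcn2 overlapped, since 34.8% of low-granule cells had some Lcn2. In T lymphocytes of the same library (1701 cells with Cd3e, median 1832 genes), taken here as a reference, 8.58% had a Lcn2 value above 0. Their granule sum had a median of 0 but reached 751. Of the cells the lineage conditions left out, 21 had Cd3e. T lymphocyte shares may therefore hold more than free RNA. In the matched S100a8-high cells the Lcn2 ratio was 2.68.

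Over all 8839 genes with a summed value of at least 20, 255 (2.88%) had a log2 ratio of 1 or more and 1107 (12.5%) a ratio of -1 or less, with a median of -0.33. The rule's 4 genes and the 20 most abundant others took 46.9% of the total in granule-gene neutrophils and 26.1% in low-granule cells. Leaving them out of the total moved the median of all genes by 0.45, to 0.12, and the split to 704 higher and 400 lower genes, so ratios between about -0.5 and 0 have no fixed direction. In depth-matched cells 173 of 7751 genes (2.23%) were higher and 2648 (34.2%) lower, with a median of -0.75. In matched S100a8-high cells 447 of 5109 (8.75%) were higher and 328 (6.42%) lower, with a median of -0.14.

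Specific granule genes other than the rule's Camp, Ngp and Ltf had a log2 ratio of 1 or more in 12 of 17 cases with enough signal and a ratio of -1 or less in 0, with a median of 1.43. The median was 1.86 in depth-matched cells (10 of 17) and 0.99 in matched S100a8-high cells (8 of 17). Chil3, a chitinase-like protein that early neutrophils and alveolar macrophages both make, ranged from 0 to 37 per cell with a median of 2 in granule-gene neutrophils, and from 0 to 15 with a median of 0 in low-granule cells. Its level was 1011 CPM against 45.2, a log2 ratio of 4.45, and 5.20 in matched S100a8-high cells. Cd177, a surface protein of the specific granule membrane, was above 0 in 83.5% of granule-gene neutrophils (78.2 to 87.9), in 6.76% of low-granule cells and in 1.47% of T lymphocytes, at 454 against 24.7 CPM (log2 ratio 4.14).

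Orm1, the acute-phase orosomucoid, was above 0 in 57 of 248 granule-gene neutrophils and in 2 of 858 low-granule cells, at 84.9 against 0.951 CPM. It was thus a marker of some of the cells only. Olfm4, olfactomedin 4, which in human neutrophils marks only a subset, was above 0 in 78.6% of granule-gene neutrophils and in 43.9% of low-granule cells, with ranges of 0 to 67 (median 14) and 0 to 30 (median 0). Its log2 ratio was 2.24 (1.03 in matched S100a8-high cells). Mmp8, neutrophil collagenase, had a ratio of 2.04 that came to 0.61 in those cells, and Itgb2l, an integrin beta-2-like surface protein, 2.71 and 1.34. Cybb, the membrane subunit of the NADPH oxidase, had a ratio of 1.14, 0.13 in depth-matched cells and 1.17 in matched S100a8-high cells. Hp (haptoglobin, 0.12), Chil1 (0.16), Lrg1 (0.10) and Slpi (0.08), all on the specific granule list, were near 0 with all cells. In depth-matched cells Lrg1 was at 0.93, Hp at 0.49, Chil1 at 0.43 and Slpi at -0.28.

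The azurophil granule protease genes and Mpo were sparse, while other genes of that list were not. Elane, neutrophil elastase, was above 0 in 2 of 248 granule-gene neutrophils (4 of 858 low-granule cells), Mpo, myeloperoxidase, in 1 (3 of 858), and Ctsg, cathepsin G, in 1 (4 of 858). Prtn3, proteinase 3, was above 0 in 5 granule-gene neutrophils (2.02%) with a highest value of 11, and in 20 low-granule cells (2.33%) with a highest value of 9. Of the 7 azurophil list genes with enough signal, 1 was higher (Serpinb1a, 2.88) and 1 lower (Srgn, -1.58), with a median of -0.08 that became 0.39 without the abundant genes in the total. Serpinb1a encodes an inhibitor of neutrophil serine proteases rather than a protease. It was above 0 in 60.9% of granule-gene neutrophils, 8.51% of low-granule cells and 12.1% of T lymphocytes. Srgn encodes serglycin, the proteoglycan core that packs granule contents. Lyz2, lysozyme, which is found in several kinds of granule, was at 11992 against 6269 CPM (0.94). Its ratio was 0.11 in depth-matched cells, 0.70 in matched S100a8-high cells and -0.04 with at least 1500 detected genes.

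Gelatinase granule and secretory vesicle genes were mixed: 3 of 12 were higher and 0 lower, with a median of 0.61 that came to -0.09 in matched S100a8-high cells. The 3 were Padi4, the histone-citrullinating enzyme (2.70), Fcnb, ficolin B (2.50), and Anxa1, annexin A1 (2.09). Anxa1 ranged from 3 to 70 per cell (median 26) in granule-gene neutrophils, and from 0 to 35 (median 5) in low-granule cells. Mmp9, gelatinase B itself, was at 789 against 516 CPM (0.61), and at -0.16 in matched S100a8-high cells. Retnlg, a resistin-like secreted protein listed with the mature genes, was nevertheless higher, from 0 to 349 per cell (median 93.0) in granule-gene neutrophils, against 0 to 285 (median 3) in low-granule cells.

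The stefins are small cytosolic inhibitors of cysteine cathepsins and form a cluster on chromosome 16, apart from Cstb on chromosome 10. Of the 9 listed, 7 were higher and 0 lower, at a median of 1.65 (2.29 in depth-matched cells, 7 of 8 higher and 1 lower). Stfa3 ranged from 4 to 147 per cell (median 61) in granule-gene neutrophils, and from 0 to 70 (median 1) in low-granule cells, a log2 ratio of 3.61. BC117090 had a ratio of 3.51, Stfa1 of 3.10 and BC100530 of 2.23. Cstb, the stefin that most cells use, had -0.86. In matched S100a8-high cells 3 of 8 stefins stayed at 1 or more, and the median was 0.78. The genes of the cluster are close copies, and how reads were shared between them is not given, so single stefins are uncertain.

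Of 6 S100 genes 2 were higher, S100a8, which the rule used, and its partner in calprotectin, S100a9, and 1, S100a10, was lower (-1.09). S100a9 ranged from 20 to 1183 per cell (median 796.5) in granule-gene neutrophils, and from 0 to 1084 (median 246.0) in low-granule cells. Its log2 ratio was 1.13, 0.40 with S100a8 of at least 200 and 0.25 in matched S100a8-high cells. The S100 median, -0.24, became 0.24 without the abundant genes in the total.

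Among the regulators, 1 of 21 transcription factors was higher and 8 lower, with a median of -0.65. The higher one was Cebpe, which encodes C/EBP-epsilon. It was above 0 in 47.2% of granule-gene neutrophils (40.8 to 53.6), in 11.3% of low-granule cells and in 1.23% of T lymphocytes, at 156 against 41.1 CPM. Its log2 ratio was 1.90, 2.12 in depth-matched cells and 2.15 in matched S100a8-high cells. Cebpb (-1.29), Junb (-1.41), Fos (-1.35) and Klf2 (-1.13) were lower. Cebpd (-0.21), Spi1, which encodes PU.1 (-0.33), and Hmgb2 (-0.11) lay near the median of all genes, and Cebpa was sparse in both groups (4.24 against 10.9 CPM). No lower factor stayed at -1 or less once the abundant genes were left out of the total, under which 0 of the 21 were lower.

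Of 20 listed genes of the mature neutrophil, 2 were higher (Retnlg, and Slfn4 at 2.14) and 10 lower, with a median of -0.98. In depth-matched cells 2 were higher and 6 lower (median -0.47), no more than over all genes there (34.2% lower, median -0.75). In matched S100a8-high cells 1 of 19 was higher and 8 lower (-0.95), against 6.42% of all genes lower (median -0.14). Without the abundant genes in the total 2 were higher and 8 lower (-0.51). Among cells with at least 1500 detected genes the median was -0.25. Il1b, the interleukin-1 beta precursor, ranged from 0 to 71 per cell (median 5) in granule-gene neutrophils, and from 0 to 127 (median 24) in low-granule cells, a log2 ratio of -2.07, and -1.84 in matched S100a8-high cells. The chemokine gene Ccl6 had a ratio of -2.05 and Cxcl2 of -1.88. Csf3r, the receptor for granulocyte colony-stimulating factor, ranged from 0 to 14 (median 1) in granule-gene neutrophils, and from 0 to 19 (median 3) in low-granule cells, at 201 against 769 CPM (-1.93, and -1.47 in matched S100a8-high cells). With at least 1500 detected genes none of the 4 stayed at -1 or less: Il1b was at -0.76, Ccl6 at -0.99, Cxcl2 at -0.65 and Csf3r at -0.55. That bound also changes which low-granule cells are compared. Those with S100a8 below 100 had a median of 1817 genes and the others 980. Under the bound the S100a9 ratio was 2.41 and the Ly6g ratio 4.37, against 1.13 and 3.39 with all cells. The part of this change in the ratios of mature genes was not tested. The per-cell ranges of Il1b and Csf3r overlapped between the groups.

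Inflammatory mediators as a list had 1 of 19 genes higher and 15 lower (median -1.54), and 0 of 18 higher and 10 lower (median -1.14) in matched S100a8-high cells. The median was -1.08 in depth-matched cells (12 of 19 lower) and -0.58 with at least 1500 detected genes, a bound that also changes the low-granule cells. Retention and chemotaxis receptors had 1 of 14 higher, the leukotriene B4 receptor gene Ltb4r1 (1.43), and 4 lower, at a median of -0.66. Without the abundant genes in the total 3 were higher and 1 lower (median -0.19), so the list has no fixed direction. In depth-matched cells 1 was higher and 5 lower (-0.55), near the share of all genes lower there (34.2%, median -0.75). Cxcr4, the receptor that holds neutrophils in the marrow, was at 55.2 against 141 CPM (-1.34), and at -0.58 in matched S100a8-high cells. Selplg, which encodes a selectin ligand, had -1.58. Dissociation stress genes had 0 of 18 higher and 13 lower (median -1.34, -0.96 in matched S100a8-high cells with 6 of 16 lower, and -0.59 with at least 1500 detected genes), with Atf3 at -1.93 and Dusp1 at -1.82. That these immediate-early genes moved with the mediators is given as a measurement, and their part in the result was not tested.

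Interferon-stimulated genes had 1 of 15 higher and 3 lower, at a median of -0.57. Over all genes 2.88% were higher and 12.5% lower (median -0.33). Without the abundant genes in the total the list again had 1 higher and 3 lower, at a median of -0.10. The higher one, Ifitm6, was at 1663 against 276 CPM (2.59). It ranged from 0 to 25 per cell (median 9) in granule-gene neutrophils, and from 0 to 18 (median 0) in low-granule cells. Its family member Ifitm1 had -2.16. The NADPH oxidase had 1 of 7 higher, Cybb, and a median of 0.18, with the cytosolic subunit Ncf1 at 0.27. Glycolysis had 1 of 18 higher, the myeloid hexokinase Hk3 (1.18), and a median of 0.08.

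Lists of constitutive genes had medians below 0 whose size depended on which low-granule cells were compared. Ribosomal protein genes had 17 of 20 lower and a median of -1.12, 20 of 20 lower in depth-matched cells (-1.39), and 1 of 20 lower in matched S100a8-high cells (-0.62). Oxidative phosphorylation had 4 of 18 lower (-0.86), 6 in depth-matched cells (-0.92) and 0 in matched S100a8-high cells (-0.18). The depth-matched count was near the share of all genes that were lower there (34.2%, median -0.75). Secretory pathway genes had 8 of 23 lower (-0.69), 19 in depth-matched cells (-1.27) and 0 of 22 in matched S100a8-high cells (-0.26). With S100a8 of at least 200 and no match on depth, the medians were -0.90 for ribosomal protein, -0.71 for oxidative phosphorylation and 0.04 for secretory pathway genes. Histone and chromatin genes had 10 of 16 lower (-1.20), 12 in depth-matched cells (-1.37) and 3 of 12 in matched S100a8-high cells (-0.79). Several of the genes with the lowest ratios of all, Hmgn1 (-2.33), Prdx2 (-2.22) and Rpl13a (-2.15), were at -1.50, -1.70 and -1.75 in depth-matched cells and at -0.83, -0.89 and -0.80 in matched S100a8-high cells.

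**Figure D3:**
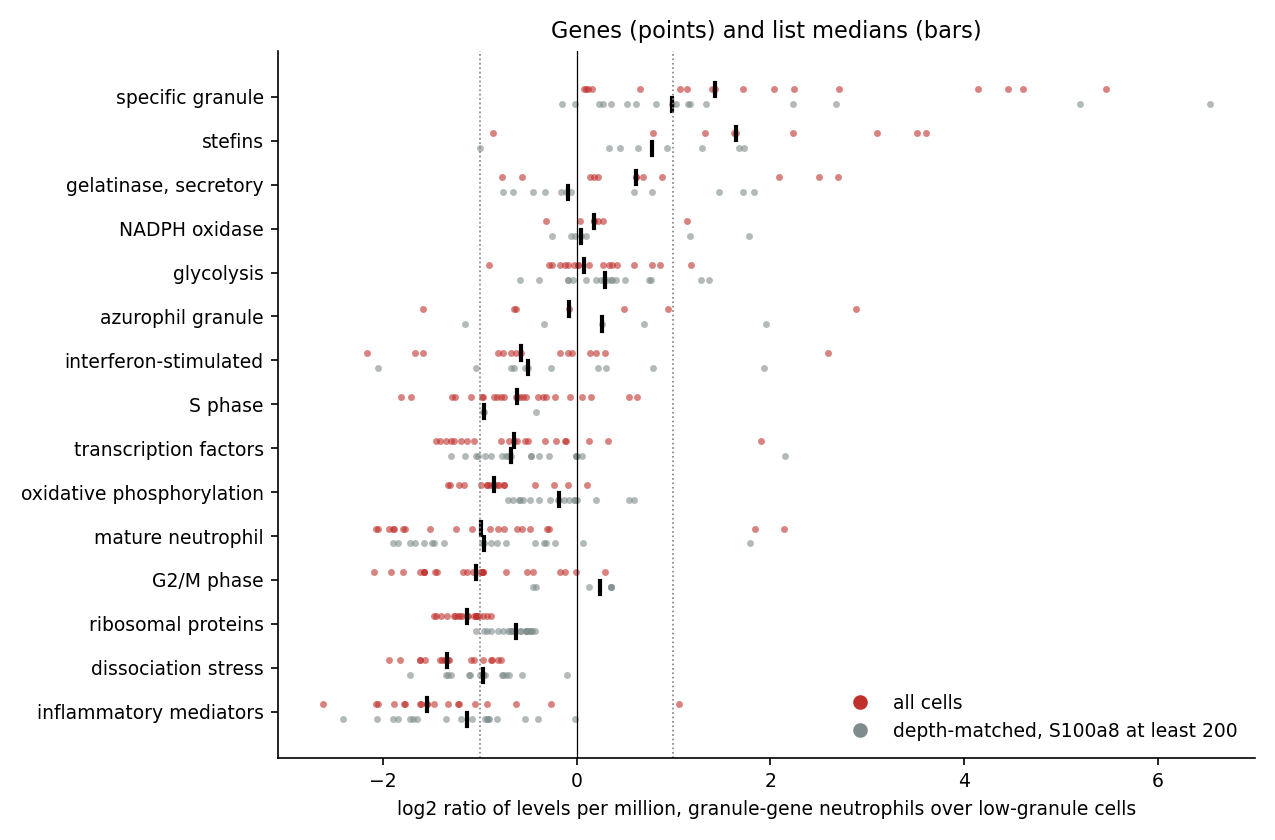
Each point is 1 gene of a list and each bar the list's median, as the log2 ratio (x axis) of granule-gene neutrophils over low-granule cells for all cells (red) and for depth-matched cells with S100a8 of at least 200 (grey), without Camp, Ngp and Ltf; dotted lines mark 1 and -1, and a gene at 0 in a group is drawn from the added 1 CPM. Specific granule genes and stefins sit to the right in both settings (medians 1.43 and 1.65 with all cells), inflammatory mediators to the left (-1.54 and -1.14), and ribosomal protein genes move from -1.12 to -0.62.

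Over all genes at 50 CPM or more in either group, the highest ratios outside the rule included, beside those already named, Tmem45a2 (a transmembrane protein, 55.9 against 0.951 CPM, 4.87), Ly6g (the surface protein used to stain mouse neutrophils, 3.39), Ankrd22 (3.21), C1qtnf12 (3.14), Zmpste24 (a protease that processes lamin A, 2.94), Adpgk (an ADP-dependent glucokinase, 2.77) and Krt83 (a hair keratin, 2.71). Ly6g was above 0 in 79.4% of granule-gene neutrophils, in 9.56% of low-granule cells and in 1.23% of T lymphocytes. In matched S100a8-high cells the ratios were 1.40 for Adpgk, 1.59 for Ly6g, 1.70 for Ankrd22, 2.37 for Krt83 and 2.94 for Zmpste24, while Tmem45a2 and C1qtnf12 had a summed value under 3 in the low-granule cells there and get no ratio. The lowest included Ccl4 (a chemokine, -2.62), Gadd45b (a stress-induced gene, -2.34), St3gal6 (a sialyltransferase, -2.26), Ccnd2 (cyclin D2, -2.13) and Hcar2 (a hydroxycarboxylic acid receptor, -2.04). In matched S100a8-high cells they lay between -2.41 (Ccl4) and -1.28 (Ccnd2).

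Cycling genes were sparse in both groups. A cell was called cycling with at least 3 of 28 G2/M genes above 0. That held for 27 of 248 granule-gene neutrophils (10.9%, 7.30 to 15.4), 93 of 858 low-granule cells (10.8%, 8.84 to 13.1) and 26.9% (26.01 to 27.7) of all other kept cells, which had a median of 2083 genes. Here and below, all other kept cells are all those that are not granule-gene neutrophils, so they include the low-granule cells. In matched S100a8-high cells it was 11.2% (7.32 to 16.2) against 10.3% (4.53 to 19.2). Cks2, which encodes a small subunit of cyclin-dependent kinases, was above 0 in 115 of the granule-gene neutrophils and at 163 against 164 CPM.

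Without Cks2, Kif23 and Cenpa, 7 granule-gene neutrophils (2.82%, 1.14 to 5.73) and 43 low-granule cells (5.01%, 3.65 to 6.69) met the same bound, against 19.05% of all other kept cells. Mki67, the Ki-67 proliferation antigen, was above 0 in 14 of 248 granule-gene neutrophils and in 55 of 858 low-granule cells. Top2a, topoisomerase II alpha, was above 0 in 14 and 49, and both genes at once in 4 (1.61%, 0.441 to 4.08) and 15 (1.75%, 0.982 to 2.87), against 11.4% of all other kept cells. At least 3 of 28 S phase genes were above 0 in 20 granule-gene neutrophils (8.06%, 4.996 to 12.2) and 76 low-granule cells (8.86%, 7.04 to 10.96), against 40.6% of all other kept cells.

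The cycling comparison differed between settings. Among cells of 1500 to 2500 detected genes, 16 of 87 granule-gene neutrophils (18.4%, 10.9 to 28.1) and 32 of 131 low-granule cells (24.4%, 17.4 to 32.7) were cycling. In depth-matched cells it was 11.8% (7.87 to 16.8) against 25.3% (20.2 to 30.9). Detected genes were not matched there, with medians of 1380.5 and 2092. Within the low-granule group the share was 19.5% in cells with S100a8 below 100, the cells richer in Csf1r, and 7.05% in the others. As lists, 0 of 24 G2/M genes were higher and 13 lower (median -1.04), 0 of 25 S phase genes higher and 5 lower (-0.61), and 0 of 12 genes of cell-cycle exit higher and 4 lower (-0.21). Over all genes 2.88% were higher and 12.5% lower (median -0.33). Without the abundant genes in the total, 0 G2/M genes were higher and 8 lower (-0.62). S phase then had 1 higher and 2 lower (-0.16), and cell-cycle exit 2 higher and 2 lower (0.24). In matched S100a8-high cells only 6 G2/M genes had enough signal, with 0 past a ratio of 1 in either direction and a median of 0.25. With S100a8 of at least 200 and no match on depth, 25 of 237 granule-gene neutrophils (10.55%, 6.94 to 15.2) and 21 of 376 low-granule cells (5.585%, 3.49 to 8.41) were cycling. Mki67, in matched S100a8-high cells, was above 0 in 5.61% of granule-gene neutrophils (2.93 to 9.59) and 1.28% of low-granule cells (0.0325 to 6.94). The order of the groups thus changed with the setting, and no setting was tested.

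**Figure D4:**
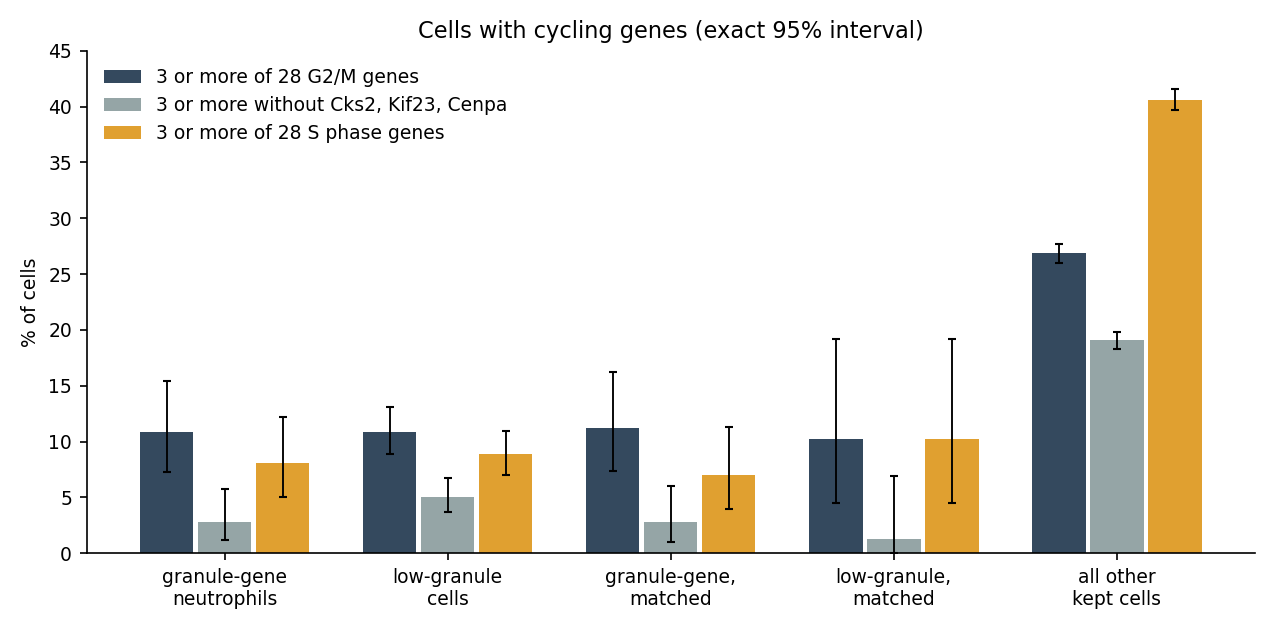
Share of cells (y axis, %) with 3 or more G2/M genes (dark), with 3 or more after leaving out Cks2, Kif23 and Cenpa (grey) and with 3 or more S phase genes (yellow); bars carry exact 95% binomial intervals and "matched" means depth-matched with S100a8 of at least 200. Granule-gene neutrophils (10.9%, 2.82% and 8.06%) overlap low-granule cells in every pair of intervals, and all other kept cells, which include the low-granule cells, are higher (26.9%, 19.05% and 40.6%).

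The 7 granule-gene neutrophils with 3 or more G2/M genes beyond Cks2, Kif23 and Cenpa had granule sums from 90 to 516 (median 296), inside the span of the other 241 (24 to 900, median 235). Camp was at 24029 CPM in the 7 and at 22175 in the 241, and Ngp at 18034 and 19698. Prtn3 was above 0 in 2 of the 7 and in 3 of the 241, and Cebpe in 6 of the 7 and 111 of the 241. With 7 cells, which had a median of 1764 genes against 1295, these counts stay descriptions.

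The granule-gene neutrophils also varied among themselves. In ranges of the granule sum that start at 20, 50, 100, 200 and 400 they numbered 17, 33, 56, 86 and 56 cells. Chil3 followed the sum, which the rule used, at 56.0, 139, 326, 949 and 2454 CPM. Cebpe had 56.0, 77.7, 86.3, 154 and 293 CPM, and Serpinb1a 44.8, 88.8, 134, 219 and 438, so these genes were highest where Camp, Ngp and Ltf were.

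Retnlg ran the other way at the top of the range, with 27599, 21047, 22836, 18439 and 8618 CPM, and 2971 in the 576 low-granule cells with a sum of 0. Il1b had 1891, 1969, 1608, 1324 and 671 CPM, against 5959 in those 576 cells. Mmp8 had 884, 943, 1122, 1109 and 582 CPM, against 168.5 there. Both Retnlg and Mmp8 were thus highest in the middle of the order and low at its ends. The 66 low-granule cells with sums of 5 to 19 already had Retnlg at 22729 and Lcn2 at 1850 CPM, and their Il1b was 3742. The share of cycling cells showed no order over the ranges, between 5.88% and 12.1% in granule-gene neutrophils.

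**Figure D5:**
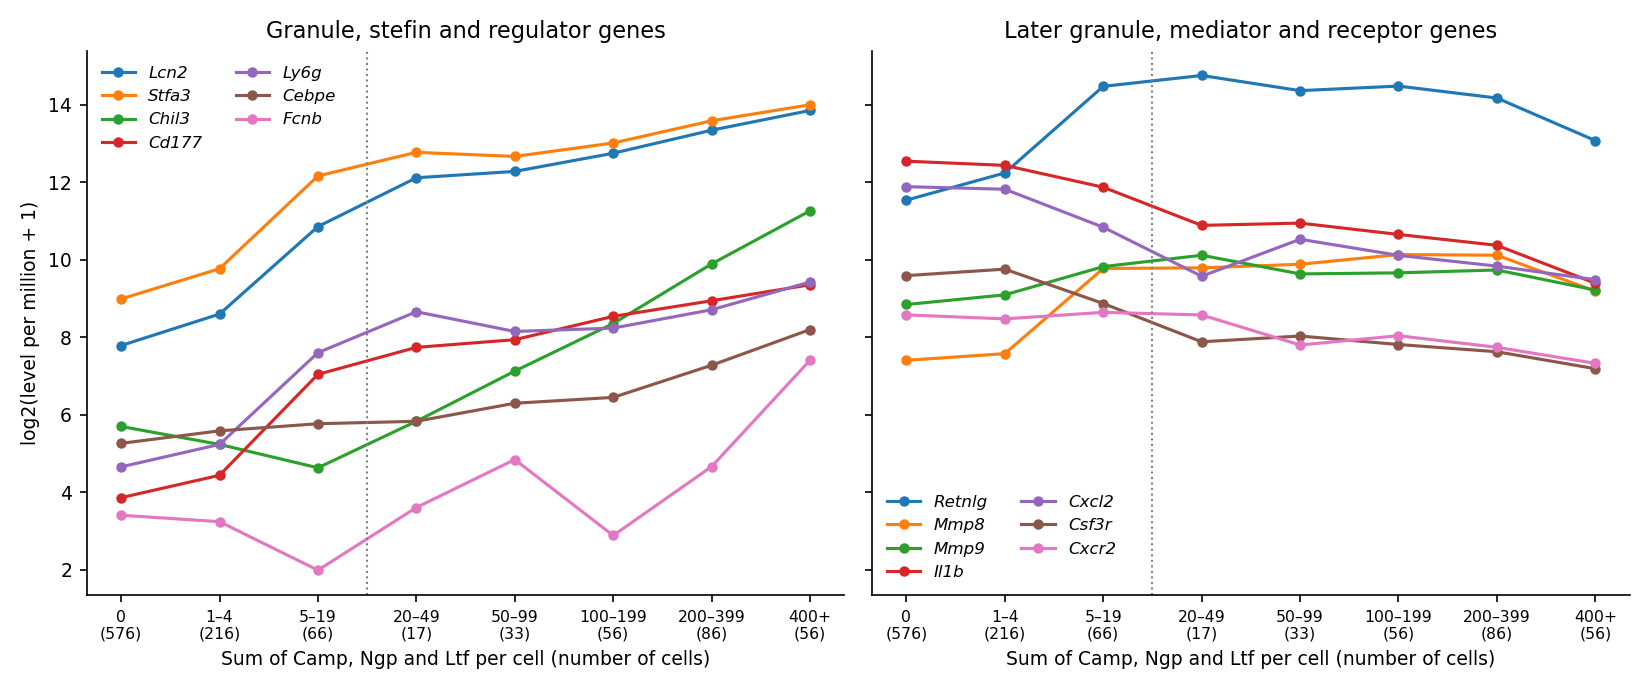
Level in CPM on a log2 scale (y axis, 1 added) over 8 ranges of the sum of Camp, Ngp and Ltf (x axis, low to high, cells per range in brackets); the dotted line separates low-granule cells (left) from granule-gene neutrophils (right). Lcn2, Stfa3, Chil3, Cd177 and Cebpe are highest at sums of 400 or more, Retnlg and Mmp8 peak between, and Il1b, Cxcl2 and Csf3r are highest at sums of 0 to 4.

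Between the 56 granule-gene neutrophils with sums of 400 or more and the 50 below 100, 105 of 2619 genes (4.01%) had a log2 ratio of 1 or more and 631 (24.1%) a ratio of -1 or less, with a median of -0.51. Chil3 stood at 4.45, Fcnb at 2.87, Serpinb1a at 2.54, Cebpe at 2.04 and Lcn2 at 1.62. Lower in the first were Cxcr4 (-2.18), S100a6 (-1.74), Ccl6 (-1.58) and Il1b (-1.53), as well as 18 of 20 ribosomal protein genes (median -1.49). Markers of other cell types were lower there too. Of the monocyte genes 6 of 7 were lower (median -2.45), summing to 854 against 1962 CPM, and of the epithelial genes 4 of 5 (median -3.13), summing to 437.5 against 4087 CPM. Fn1 was at -2.45 and Sftpc at -3.58, and the part of these markers in the result was not tested. The cells below 100 include 1 predicted doublet with a Sftpc value of 723, which held 51.7% of the Sftpc of all granule-gene neutrophils. Over low-granule cells, leaving out sums below 50 moved the Sftpc ratio from -1.22 to -2.31. The rise of Camp, Ngp and Ltf in this comparison is fixed by how the ranges were cut.

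Across the 248 granule-gene neutrophils, Spearman's rho was 0.90 between Camp and Ngp, 0.84 between Ngp and Ltf and 0.80 between Camp and Ltf. Of the genes outside the rule, Lcn2 (0.76 with Ngp), Chil3 (0.74 with Camp) and Stfa3 (0.74 with Ngp) were most like them among the 10 genes outside the rule that were compared. Cebpe had 0.36 with Camp, Il1b -0.26 and Retnlg -0.36, and Chil3 and Retnlg had -0.53 with each other. These are descriptions over cells that share 1 library and a depth correction, and they are given with no test.

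Markers of other cell types were mostly above 0. All 8 monocyte, 12 macrophage and 9 epithelial genes had some signal in both groups, and beside the genes the rule sets to 0, Pdgfra, Fcer1a and Alas2 were among those at 0 in granule-gene neutrophils. The summed level of 8 monocyte genes was 1470 CPM in granule-gene neutrophils and 1613 in low-granule cells. They took 0.147% of the total in granule-gene neutrophils and 0.547% in 129 cells gated as monocytes. That gate asked for Ly6c2 of at least 3, Ccr2 above 0, S100a8 below 20 and no lineage gene, and Ly6c2 and Ccr2 are themselves on the list. Ly6c2, which early neutrophils share with monocytes, was at 646 CPM in granule-gene neutrophils against 210 in low-granule cells (1.62, 0.36 in depth-matched cells and 1.34 in matched S100a8-high cells). In depth-matched cells the monocyte genes summed to 1460 against 3130 CPM, with 7 of 8 lower (median -1.65), and 11 of 12 macrophage genes were lower (median -1.95). In matched S100a8-high cells the monocyte genes summed to 1388 against 929 CPM, with 3 of 8 higher and 1 lower (median 0.93). Of 6 macrophage genes with enough signal there, 1 was higher and 0 lower (median -0.17). With all cells the 12 macrophage genes summed to 1695 against 1485, of which Chil3 made most in granule-gene neutrophils. Of the 12, 1 was higher (Chil3) and 5 lower, at a median of -0.85. C1qa, a defining gene, was above 0 in 3.23% against 2.68%, while its level was lower (log2 ratio -1.19). Dendritic cell genes summed to 121 against 350 CPM, eosinophil, basophil and mast cell genes to 56.6 against 136, stem and progenitor genes to 53.8 against 78.0, and B lymphocyte genes to 19.8 against 47.5. Endothelial genes summed to 42.4 against 37.8, fibroblast and mural genes to 79.2 against 201, and erythroid and platelet genes to 25.5 against 45.9. Epithelial genes summed to 1288 against 2711, most of it Sftpc, the surfactant protein C gene, and 1 granule-gene neutrophil with a Sftpc value of 723 held 51.7% of the group's Sftpc and was a predicted doublet. The part of these cells in the results was not tested.

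The T lymphocyte and NK genes summed to 632 CPM in granule-gene neutrophils and 467 in low-granule cells, and 1 gene made up most of it. Cd3d, the delta chain of the T cell receptor complex, was above 0 in 90.7% of granule-gene neutrophils (86.4 to 94.0), in 46.7% of low-granule cells (43.4 to 50.1) and in 87.5% of T lymphocytes. Its level was 527.6 against 299.5 CPM, with 813.5 in T lymphocytes and 43.4 in B lymphocytes. Its neighbour Cd3g, the gamma chain gene, was above 0 in 17.3% of granule-gene neutrophils and 8.86% of low-granule cells, against 87.5% of T lymphocytes, and Trbc2, a T cell receptor constant region, in 9.68%, 12.1% and 89.0%. The Cd3d ratio was 0.81 with all cells and 0.00 in matched S100a8-high cells.

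The bulk library of PDGFRA+ cells, which should hold no neutrophils, gave the same genes at low levels. Ngp stood at 10.0 reads per 1000000 (Poisson 95% interval 9.55 to 10.5), Ltf at 5.06 (4.72 to 5.40), Lcn2 at 2.91 (2.67 to 3.18), Camp at 1.77 (1.58 to 1.99) and S100a8 at 3.88 (3.59 to 4.19), beside 183.7 for Pdgfra. Elane was at 0.0407 and Mpo at 0.0523. In a bulk sample fewer cells of a type and less RNA per cell cannot be told apart.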

How the data were processed

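Single-cell RNA-seq of wild-type peripheral lung and bulk RNA-seq of PDGFRA+ cells of Pdgfra-H2BGFP mice, both at postnatal day 3, gave 1 sample each. The tools named per the submitters' processing notes are Cell Ranger 5.0 and Seurat 3.2.2 for the cells. For the bulk library the notes list mm10 with HISAT2, featureCounts, Trim Galore and DESeq2. For the cells, the build was not given in the sources used here.

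The deposited single-cell values were treated as a score, that is, whole-number UMI values corrected for depth by a step that is not given, since cell totals spanned 1.79-fold and, of values above 0, 27.7% were 1 in the 1000 cells with fewest genes against 74.3% in the 1000 with most. Raw counts had been planned for, and thinning and Poisson intervals were dropped for these cells. The deposited bulk table holds an expected count for each gene (171910584 reads in all), scaled here per 1000000 reads with exact Poisson 95% intervals. Its TPM column by the authors was read as a second scale and is not printed. No column of values was left out for want of a sample (0).

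The members, gene lists and cycling genes were chosen with earlier results of these data known. A level is a group's summed values per 1000000, and a log2 ratio adds 1 to both sides, for genes with a sum of at least 20. Shares carry exact Clopper-Pearson 95% intervals, and these and the Poisson intervals cover counting error only. Named genes were all measured members of the granule, S100, stefin and transcription factor lists, up to 4 of every other list by size of ratio with a sum of at least 100, the 15 highest and 15 lowest ratios at 50 per 1000000 or more, with the rule's genes left out. Retnlg, Cd3g, Csf1r, Elane, Mpo, Ctsg, Mki67, Top2a and Cks2 fall outside it and were chosen after their values were seen. The top range of the granule sum was divided at 400 after the values were seen. Doublets were predicted with an own version of the Scrublet score (expected 5%), which called 396 of 10660 kept cells, 8 of them granule-gene neutrophils, and removal was an alternative only. Motifs were searched on both strands of RefSeq promoter windows (GRCm38.p6), and gene positions are from GENCODE M21. The ratio and doublet steps were tested on simulated data. Python 3.11.15, numpy 2.4.6, scipy 1.17.1, pandas 2.3.3, scikit-learn 1.9.0, scikit-image 0.26.0 and matplotlib 3.10.9 were used.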

Additional observations from a re-analysis of the deposited data

Results flagged for a closer look

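Signal of the granule genes appeared in data outside the main measurement, the bulk library of PDGFRA+ cells, above the limit that a count of 0 allows there (0.0175 reads per 1000000, from 3 reads). Camp stood at 1.77, Ngp at 10.0, Ltf at 5.06 and Lcn2 at 2.91 reads per 1000000. The source of these reads was not tested.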

How the results depend on the processing

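Limits: 1 library without replicates, groups chosen from measured values, values already corrected for depth, and a low-granule group that is shallower and mixed. No paired analysis was possible because each group has 1 sample and no result comes from a test. Of the 320 list medians recomputed for 20 lists, 306 kept their sign. Of 117 named genes past a log2 ratio of 1 (40 higher, 77 lower), 110 kept their sign under every alternative run. The exceptions follow, and where nothing else is said the cause was not tested. Alternatives by depth match, S100a8 of at least 200, both together, lineage genes at 1 or below, and the 2 shorter cycling definitions were chosen after seeing the data.

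The share of granule-gene neutrophils was 2.91% with mitochondrial genes at most 5%, 1.24% with at least 1500 genes and 2.92% with lineage genes at 1 or below. Cycling shares, granule-gene neutrophils against low-granule cells, were 18.8% and 31.7% with at least 1500 genes, 18.4% and 24.4% at 1500 to 2500 genes, 68.9% (68.95) and 64.3% for at least 1 G2/M gene, 1.21% and 3.26% for 5, 2.82% and 5.01% without Cks2, Kif23 and Cenpa, and 1.61% and 1.75% for Mki67 with Top2a. Low-granule cells alone moved to 25.3% when depth-matched and to 5.59% (5.585) with S100a8 of at least 200.

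Genes higher and lower numbered 704 and 400 without the abundant genes in the total, 119 and 422 with 10 added, 565 and 1684 at a sum of 1, 105 and 601 at a sum of 100, 645 and 510 with S100a8 of at least 200, and 447 and 328 with depth match as well. Depth match alone gave 2648 lower, and at least 1500 genes gave 160 higher.

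Medians moved as follows. With at least 1500 genes: S phase -0.89, stress -0.59, mediators -0.58, mature genes -0.25, oxidative phosphorylation -0.71, ribosomal -0.98. At 1500 to 2500 genes: S phase -0.92, stress -0.65, mediators -0.65, mature genes -0.38, oxidative phosphorylation -0.74. Depth-matched: G2/M -1.62, S phase -1.44, mature genes -0.47, ribosomal -1.39, secretory pathway -1.27. With S100a8 of at least 200: G2/M -0.46, S phase -0.24, oxidative phosphorylation -0.71, ribosomal -0.90, secretory pathway 0.04. With both: G2/M 0.25 (reversed), S phase -0.95, stress -0.96, gelatinase and secretory -0.09, oxidative phosphorylation -0.18, ribosomal -0.62, secretory pathway -0.26, stefins 0.78. Without the abundant genes in the total: G2/M -0.62, S phase -0.16, stress -0.87, glycolysis 0.55, transcription factors -0.18, mature genes -0.51, oxidative phosphorylation -0.38, ribosomal -0.65, secretory pathway -0.24, each by about the shift of 0.45 that this total gives. With 10 added: G2/M -0.52 and S phase -0.32. With S100a8 of at least 50: secretory pathway -0.38. With doublets removed: S phase -0.99.

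Of the 117 genes past a ratio of 1, the 7 that changed sign were Klf2 (0.01 with at least 1500 genes), Adgre1 (0.68) and Ager (0.70) with S100a8 of at least 200, and Birc5 (0.36), Ube2c (0.36), Dad1 (0.16) and Fn1 (1.04) in matched S100a8-high cells. Of the 54 named genes with a ratio below 1 in size, 30 changed sign under some alternative, among them Lyz2 (-0.04) and Mxd1 (0.27) with at least 1500 genes, F13a1 (0.92) in matched S100a8-high cells and Prtn3 (-1.03) in depth-matched cells.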
